A study of Mus musculus with 18 samples.

Results

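Transfer RNAs for isoleucine (Ile) and valine (Val) were followed through small RNA-seq libraries of mouse brain cell fractions. The members were all cytoplasmic tRNA gene copies of the count table whose name gives Ile or Val as the amino acid, 37 of 407 copies (16 for Ile, 21 for Val). Copies with the same mature sequence share their reads, so their counts were summed per isodecoder, the group of genes that yields one mature tRNA, which gave 20 of 218 isodecoders (7 for Ile, 13 for Val). The isodecoders carry 5 of the 51 anticodons in the table, named by their DNA letters as Ile-AAT, Ile-TAT, Val-AAC, Val-CAC and Val-TAC. Wild-type (WT) mice and mice homozygous for Atxn2-CAG100-KIN, a knockin that puts a long pure CAG repeat into the mouse Atxn2 gene, were littermates on a C57BL/6 background and were studied at 10 months. The paper describes same-sex pairs of a mutant and a WT mouse, with both sexes present. The labels do not say which libraries belong to a pair. From each brain, microglia were captured with CD11b beads, astrocytes then with ACSA-2 beads, and neurons were collected as the cells left after removal of non-neuronal and CD31-bearing cells. Each fraction and genotype had 3 libraries, 18 in all, and the knockin is carried by every cell of the body, so no Cre or transgene promoter restricts it. The knockin adds bases to the Atxn2 mRNA, and these counts of small RNA could not check the allele.

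A tRNA reads a codon of the mRNA with its anticodon and brings the matching amino acid to the ribosome. In both families the first anticodon base of the AAT and AAC forms is deaminated from adenosine to inosine, which widens the range of codons read: Ile-AAT serves AUU and AUC, and Val-AAC serves GUU and GUC. Ile-TAT reads the rarer codon AUA, Val-CAC reads GUG and Val-TAC reads GUA. Ile and Val are branched-chain amino acids of similar shape, and each has its own aminoacyl-tRNA synthetase. Reads from such libraries may be whole tRNAs or pieces of them, and the table does not tell these apart.

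Mitochondria make their own pair of such tRNAs from the mitochondrial genome, mt-Ti for Ile and mt-Tv for Val. Their sequences are shown because they mark where the anticodon lies in a tRNA and because both were measured in the same libraries. They are given 5′ to 3′ in DNA letters on the plus strand of GRCm39 with the anticodon in capitals, mt-Ti from chrM:3706-3774 and mt-Tv from chrM:1025-1093, as annotated by GENCODE.
mt-Ti: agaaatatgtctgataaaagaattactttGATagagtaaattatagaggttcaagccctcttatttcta
mt-Tv: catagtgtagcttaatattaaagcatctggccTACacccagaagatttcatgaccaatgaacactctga
Both genes are 69 bases long, with the anticodon at bases 30 to 32 of mt-Ti and 33 to 35 of mt-Tv. For the cytoplasmic members the count table lists a name and a length but no sequence or position, so none is printed.

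The libraries held 1211118 to 4316748 counts, of which 1837 to 60311 fell on Ile and Val tRNAs together. Mature miRNA markers were checked first, each as a summed level in CPM, counts per 1000000 of the library total. The 3 myeloid markers (miR-142a and miR-223) lay between 2835 and 5914 CPM in the microglia libraries and at 377 CPM or less elsewhere, with 10.2 to 12.6 CPM in WT and 25.0 to 48.5 CPM in KIN astrocytes. No marker particular to astrocytes was listed, but miR-9 of the neural lineage stood at 5835 CPM or more in their fraction and at 4079 CPM or less in the others. The 3 neuronal markers (miR-124, miR-128 and miR-138) went against the label of the neuron fraction, with 49 to 228 CPM there and 1036 to 3150 CPM in the astrocyte fraction. The fraction labelled neurons is therefore called by its label only. Oligodendrocyte markers (miR-219a and miR-338) were present in the astrocyte fraction and higher in KIN (3351 to 5112 CPM) than in WT (1770 to 3035 CPM). The summed markers of red blood cells stayed at 281 CPM or less, and those of endothelium at 563 CPM or less. In the neuron fraction red blood cell markers stood at 120, 281 and 62.8 CPM in WT and 71.3, 38.3 and 44.1 CPM in KIN. Myeloid markers stood there at 42.9, 225 and 143 CPM in WT and 377, 313 and 173 CPM in KIN. Their part in the values of the neuron fraction was not tested. WT replicate 2 of the neuron fraction stood apart, with 10.6% of its counts on tRNAs against 2.94% and 4.54% in the other WT libraries, so neuron values that rest on it are also given without it.

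Val tRNAs outnumbered Ile tRNAs in every library. Val-CAC-2, encoded by 5 identical copies, held 205012 counts over the 18 libraries. It made up 58.6 to 67.6% of the Val counts in the glial libraries and 36.9 to 50.9% in the neuron libraries, where Val-TAC-1 (44.8%) exceeded it in WT replicate 1. Per 100 bases of reference length and averaged over the libraries, Val-CAC-2 stood at 4435 CPM, followed by Val-TAC-1 at 1178, Val-AAC-1 at 907 and Val-AAC-5 at 581 CPM. The leading Ile isodecoders on the same scale were Ile-AAT-1 at 361 and Ile-AAT-2 at 256 CPM, with Ile-AAT-4 at 53.1 CPM, and the remaining tested members lay between 9.66 and 93.4 CPM. The counts were divided almost evenly among identical copies: the 8 copies of Ile-AAT-1 each held 12.0 to 12.9% of its counts and the 5 copies of Val-CAC-2 each 19.9 to 20.1%, so a single copy carries no information of its own. In Ile-TAT-2 the 3 copies held 23.1 to 51.4% each, and they differ in length (93 to 96 bases). The references for Ile-TAT-1 and Ile-TAT-2 were longer (93 to 96 bases) than those of the other members (72 to 74 bases). A total of 4 isodecoders were almost unread, namely Ile-TAT-3 with 3 counts, Val-CAC-5 with 9, Val-CAC-7 with 4 and Val-AAC-6 with 0 counts in all libraries together. These failed the filter (5 counts in at least 2 libraries of a comparison), and the other 16, 6 for Ile and 10 for Val, were tested in every comparison.

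**Figure D1:**
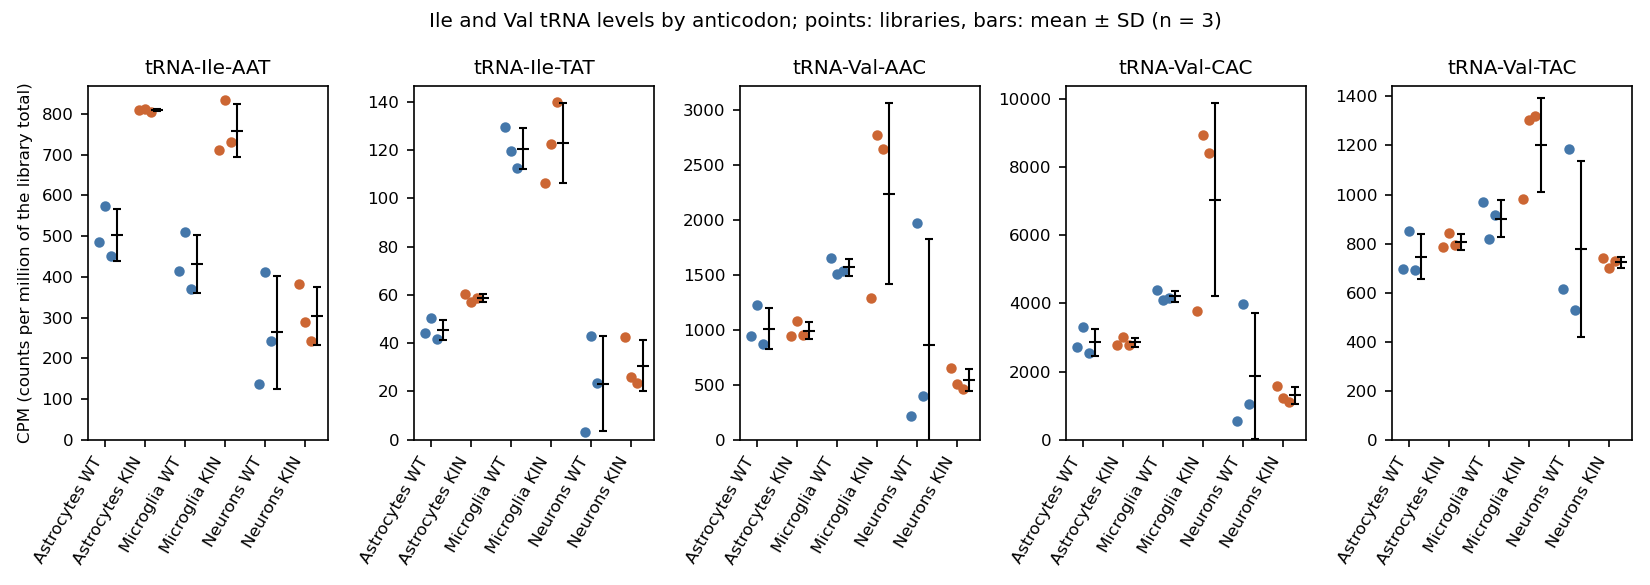
CPM of the library total (y axis, from 0) for each of the 5 anticodons in the 6 groups (x axis), with WT in blue, KIN in orange, points for libraries and bars for mean ± SD (n = 3, with the bar of Val-AAC in WT neurons running below 0). Ile-AAT sits between 806 and 812 CPM in the KIN astrocyte libraries and between 451 and 574 CPM in the WT ones, while the Val anticodons overlap there. WT replicate 2 of the neuron fraction lies far above the other WT neuron libraries for Val-AAC and Val-CAC.

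In astrocytes, Ile tRNAs were higher in KIN than in WT, and the difference in Val tRNAs did not pass the test. All Ile counts together stood at 886, 951 and 920 CPM in KIN replicates 1 to 3 and at 480, 627 and 456 CPM in WT replicates 1 to 3, after scaling within the fraction by TMM (trimmed mean of M-values). Every KIN library lay above every WT library. The log2 fold change was 0.82 ± 0.133 (SE), with an adjusted p of 0.00913 by edgeR's quasi-likelihood test over all features. All Val counts together stood at 4582, 5388 and 4817 CPM in KIN and 3957, 5405 and 3791 CPM in WT, and these ranges overlapped. Their log2 fold change was 0.17 ± 0.134 (SE), with an adjusted p of 0.397. Among the 22 amino acid groups of tRNA tested in astrocytes, Ile had the second-highest log2 fold change after Thr (0.85) and Val ranked 17, the median being 0.31. A pass as higher was not particular to Ile: Thr, Lys, Arg, Glu, Tyr, Asn and Met also had an adjusted p under 0.05. The oligodendrocyte and myeloid markers were also higher in the KIN than in the WT astrocyte libraries, and their part in the Ile difference was not tested. In such bulk fractions a different cell makeup and a different amount of RNA per cell cannot be told apart.

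At the level of isodecoders, 2 of the 16 tested members were called in astrocytes, where called means an adjusted p of at most 0.05 and a log2 fold change of at least 1 in size. Both were higher in KIN, while over all 5541 features tested 8.23% were called and 1.88% were called as higher. Of all 176 tRNA isodecoders tested, 9 were called as higher. Ile-AAT-4, a single-copy isodecoder, stood at 61.9, 75.9 and 69.7 CPM in KIN against 23.6, 35.9 and 28.7 CPM in WT. Its log2 fold change was 1.23 ± 0.218 (SE, adjusted p = 0.0118), the highest of the members in this fraction. Ile-AAT-3, also encoded once, stood at 43.5, 41.4 and 40.8 CPM in KIN against 16.3, 26.6 and 17.1 CPM in WT, with a log2 fold change of 1.06 ± 0.249 (SE, adjusted p = 0.0312). In both the lowest KIN library exceeded the highest WT library.

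The 2 most abundant Ile isodecoders rose by less than 1 log2 unit and so passed the threshold on the adjusted p only. Ile-AAT-1 stood at 508, 497 and 503 CPM in KIN against 256, 329 and 249 CPM in WT, a log2 fold change of 0.85 ± 0.131 (SE, adjusted p = 0.00615). Ile-AAT-2 stood at 211, 266 and 236 CPM in KIN against 149, 182 and 128 CPM in WT, a log2 fold change of 0.64 ± 0.164 (SE, adjusted p = 0.0389). Thus 4 of the 16 members passed an adjusted p of 0.05 as higher, where 4.62% of all features and 33 of all 176 tRNA isodecoders did. The 2 Ile-TAT isodecoders did not pass: Ile-TAT-1 had a log2 fold change of 0.67 ± 0.253 (SE, adjusted p = 0.0987) and Ile-TAT-2 one of 0.43 ± 0.207 (SE, adjusted p = 0.172). In all 6 tested Ile isodecoders every KIN library lay above every WT library, against 14.6% of all features with such a separation in this direction.

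None of the 10 tested Val isodecoders passed an adjusted p of 0.05 in astrocytes, and their log2 fold changes ran from -0.28 to 0.54 around a median of 0.05. The dominant Val-CAC-2 stood at 2732, 3143 and 2829 CPM in KIN against 2405, 3150 and 2271 CPM in WT (log2 fold change 0.15 ± 0.126 SE, adjusted p = 0.417). Val-TAC-1, the single isodecoder with its anticodon, had a log2 fold change of 0.26 ± 0.130 (SE, adjusted p = 0.189) and Val-AAC-1 one of 0.24 ± 0.154 (SE, adjusted p = 0.289). The lowest value belonged to Val-AAC-2, with 38.2, 46.9 and 38.8 CPM in KIN against 42.9, 68.0 and 39.2 CPM in WT (log2 fold change -0.28 ± 0.249 SE, adjusted p = 0.456). Only Val-CAC-4, at 4.74 to 4.84 CPM in KIN and 2.84 to 3.51 CPM in WT, separated the genotypes among the Val isodecoders without passing the test (adjusted p = 0.282). The median log2 fold change was 0.25 for the 16 members, 0.25 for all 176 tRNA isodecoders tested and -0.20 for all features.

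**Figure D2:**
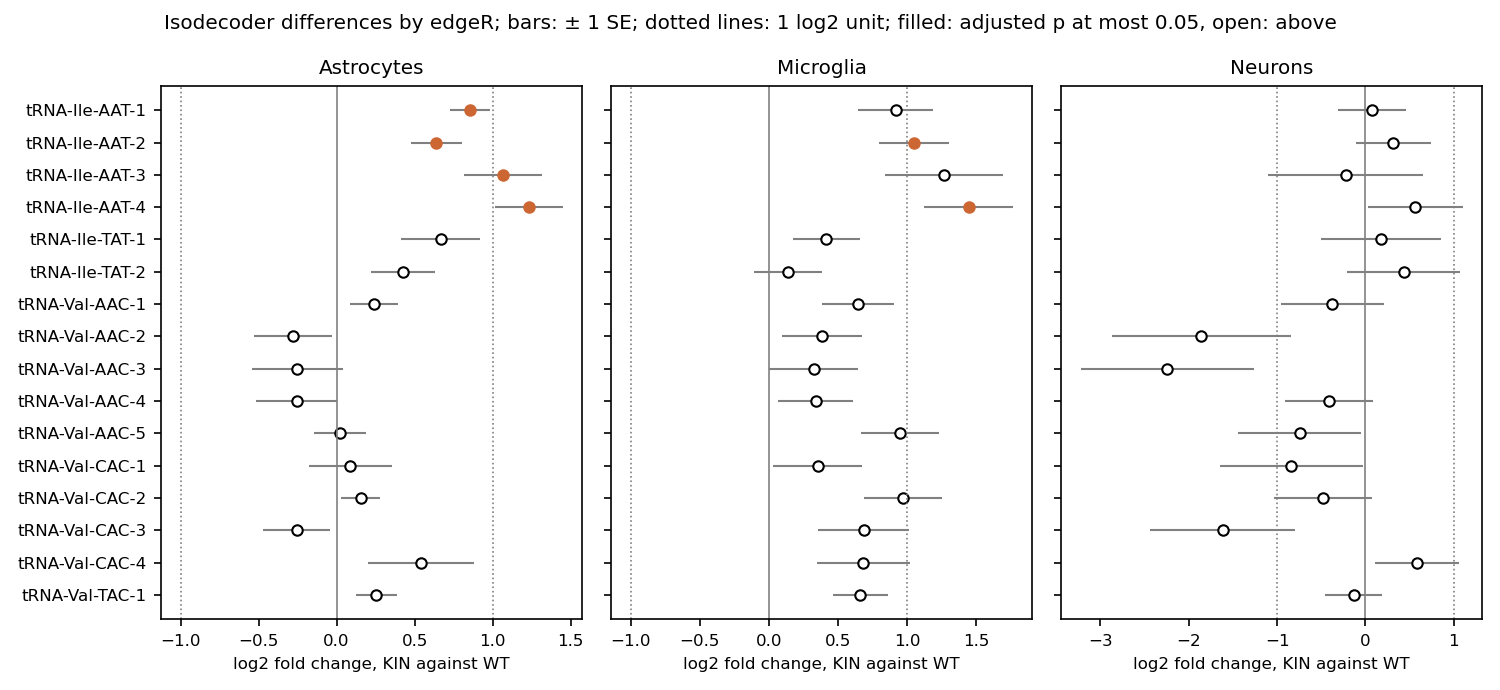
Log2 fold change of KIN against WT (x axis) for the 16 tested isodecoders (y axis) in the 3 fractions, with bars of ± 1 SE, filled points where the adjusted p was at most 0.05 and dotted lines at 1 log2 unit. In astrocytes the 6 Ile isodecoders lie between 0.43 and 1.23 and the 10 Val isodecoders between -0.28 and 0.54, while in microglia all 16 lie above 0. The x axes differ between the fractions.

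How firmly the astrocyte calls stand depended on the libraries and on the scaling. When 1 library was left out, Ile-AAT-3 and Ile-AAT-4 both stayed called without WT replicate 2, and neither was called without any 1 of the other 5 libraries. The log2 fold change of Ile-AAT-4 then ranged from 1.07 to 1.40 and its adjusted p from 0.000353 to 0.0837. That of all Ile counts ranged from 0.68 to 0.97 with adjusted p from 9.5e-05 to 0.0831. In 5 of these 6 fits all Ile counts did not pass an adjusted p of 0.05. All Val counts passed it as higher in 1 of the fits (adjusted p = 0.0201). With TMM factors taken from mature miRNA, which lowered the median of all features by 0.70 log2 units, the Ile total fell to 0.11 (adjusted p = 0.697) and the Val total to -0.53. With all cytoplasmic tRNA counts as the scale, the Ile total remained higher at 0.50 (adjusted p = 0.0156), whereas the Val total stood at -0.15 (adjusted p = 0.252).

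The ratio of Val to Ile counts within a library does not depend on any scaling. It was chosen for display after the values above had been seen. In astrocytes there were 5.17, 5.67 and 5.23 Val counts per Ile count in KIN replicates 1 to 3 and 8.24, 8.61 and 8.31 in WT replicates 1 to 3. The means were 5.36 ± 0.270 (SD, n = 3) and 8.39 ± 0.200 (SD, n = 3), and the gap between the groups was far wider than the spread within them. The exact two-sided permutation test gave p = 0.1, the smallest value that 3 libraries against 3 allow. The ratio overlapped between genotypes in microglia, with 11.7 ± 3.78 in KIN and 12.3 ± 1.84 in WT (SD, n = 3, exact p = 0.9), and in the neuron fraction, with 7.80 ± 0.803 and 11.0 ± 4.24 (SD, n = 3, exact p = 0.3). In the neuron fraction the WT ratios were 9.81, 15.7 and 7.48, so the groups also overlapped without WT replicate 2.

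**Figure D3:**
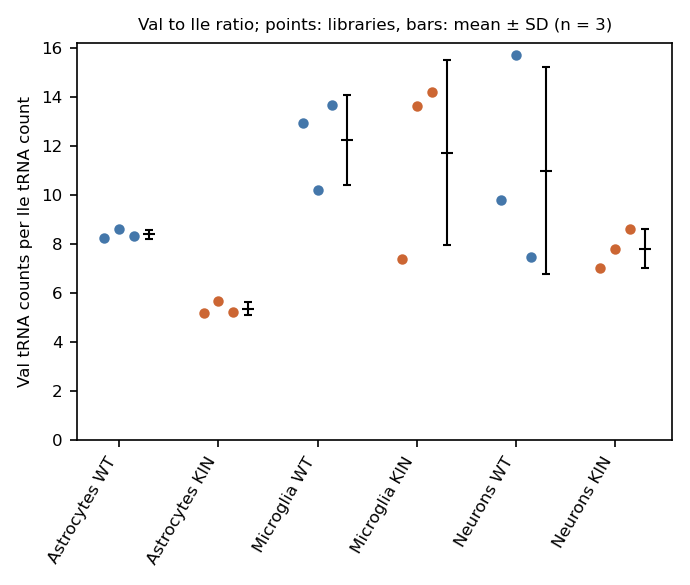
Val tRNA counts per Ile tRNA count (y axis, from 0) in each library of the 6 groups (x axis), with WT in blue, KIN in orange and bars for mean ± SD (n = 3). The astrocyte groups are separated, 5.17 to 5.67 in KIN and 8.24 to 8.61 in WT, and in microglia KIN replicate 1 (7.38) lies far below the other KIN libraries (13.6 and 14.2).

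In microglia, Ile tRNAs were higher in KIN, and Val tRNAs had a fold change of similar size that did not pass the test. All Ile counts stood at 994, 994 and 931 CPM in KIN against 458, 691 and 387 CPM in WT, without overlap, and their log2 fold change was 0.93 ± 0.241 (SE, adjusted p = 0.0357). All Val counts stood at 7335, 13541 and 13216 CPM in KIN against 5917, 7036 and 5295 CPM in WT, and their log2 fold change was 0.90 ± 0.265 (SE, adjusted p = 0.0593). The groups did not overlap for Val either, but KIN replicate 1 was much closer to the WT libraries than to the other KIN libraries. The median over the 22 amino acid groups was 0.94, with Ile at rank 14 and Val at rank 17, and 3 groups passed the adjusted p as higher. Cytoplasmic tRNAs made up 15.4 ± 1.30% of all counts in KIN against 9.74 ± 1.43% in WT (SD, n = 3). Some markers moved with genotype in this fraction, and their part in these values was not tested: miR-9 lay at 59.1 to 68.6 CPM in KIN and 82.3 to 245 CPM in WT, and the neuronal markers at 47.0 to 55.1 CPM in KIN and 60.7 to 159 CPM in WT. Myeloid markers stood at 3097, 5914 and 5079 CPM in KIN, lowest in replicate 1 as the Val total was, and at 2835 to 3389 CPM in WT. Relative to all cytoplasmic tRNA counts, the Ile total differed by 0.01 (adjusted p = 0.959) and the Val total by -0.06 (adjusted p = 0.845) on the log2 scale.

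Of the 16 members, 2 were called in microglia, both higher, where 6.35% of the 4786 features were called and 1.82% called as higher. Of all 176 tRNA isodecoders tested there, 5 were called, all higher. Ile-AAT-4 stood at 77.5, 134 and 71.2 CPM in KIN against 32.9, 45.8 and 25.7 CPM in WT, a log2 fold change of 1.44 ± 0.320 (SE, adjusted p = 0.0257). Ile-AAT-2 stood at 332, 385 and 346 CPM in KIN against 154, 232 and 128 CPM in WT, a log2 fold change of 1.05 ± 0.254 (SE, adjusted p = 0.034). Ile-AAT-4 was therefore called in both glial fractions, which were isolated one after the other from the same brains and so are not independent animals. Summed over its isodecoders, Ile-AAT had a log2 fold change of 1.05 ± 0.253 (SE, adjusted p = 0.0301), whereas Ile-TAT stood at 0.28 ± 0.222 (SE, adjusted p = 0.518).

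The other members also had log2 fold changes above 0 in microglia, but none of them passed an adjusted p of 0.05. The same 2 of 16 thus passed it as higher, where 2.26% of all features and 7 of 176 tRNA isodecoders did. Ile-AAT-1 stood at 410.1, 330.3 and 344 CPM in KIN against 159, 272 and 144 CPM in WT (log2 fold change 0.92 ± 0.270 SE, adjusted p = 0.0674). The lowest value was that of Ile-TAT-2 at 0.14 ± 0.243 (SE, adjusted p = 0.825), with overlapping libraries. Val-CAC-2 stood at 4396, 9131 and 8773 CPM in KIN against 3645, 4410.1 and 3316 CPM in WT (log2 fold change 0.97 ± 0.283 SE, adjusted p = 0.0655), so that KIN replicate 1 lay at the level of the highest WT library. Thus 1 of the 3 KIN libraries did not stand apart from WT for this member. Val-TAC-1 had a log2 fold change of 0.66 ± 0.202 (SE, adjusted p = 0.075) and Val-AAC-1 one of 0.65 ± 0.261 (SE, adjusted p = 0.161). Every KIN library lay above every WT library for 6 members (5 for Ile, and Val-TAC-1), against 11.1% of all features in this direction. The 10 Val isodecoders ran from 0.32 to 0.97 with a median of 0.65, and the 6 Ile isodecoders from 0.14 to 1.44 with a median of 0.98. The median over all 176 tRNA isodecoders was 0.91 and that over all features -0.09.

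The count of calls in microglia moved with single libraries. Leaving out WT replicate 2 gave 7 calls, leaving out KIN replicate 1 gave 4, and leaving out any 1 of the other 4 libraries gave 0. The share of all features called in these fits is not given here, so the counts are not read as particular to the members. The log2 fold change of Ile-AAT-4 ranged from 1.10 to 1.69 over these fits and its adjusted p from 0.00686 to 0.151, and that of Ile-AAT-2 ranged from 0.85 to 1.33 with adjusted p from 0.00222 to 0.181. The total of Ile passed in the first 2 of these fits (adjusted p = 0.0021 and 0.0415), and so did that of Val (adjusted p = 0.0231 and 0.00993). No member was called with library totals, with miRNA-based factors or with all tRNA counts as the scale.

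In the fraction labelled neurons, none of the 16 members was called or reached an adjusted p of 0.05 by edgeR, and neither did any of the 4381 features (0% called). The lowest log2 fold change of the members was that of Val-AAC-3, which DESeq2 did not call either. Val-AAC-3 stood at 9.58, 7.76 and 15.0 CPM in KIN against 6.10, 137 and 8.71 CPM in WT, so its log2 fold change of -2.24 ± 0.981 (SE, adjusted p = 0.864) came from WT replicate 2 and turned to 0.49 without it. The highest value was that of Val-CAC-4, with 7.08, 6.47 and 7.90 CPM in KIN against 3.49, 7.29 and 3.11 CPM in WT (log2 fold change 0.58 ± 0.475 SE, adjusted p = 0.882, and 1.07 without WT replicate 2). The leading Val-CAC-2 stood at 1449, 1220 and 976 CPM in KIN against 536, 3574 and 959 CPM in WT, and its log2 fold change of -0.48 ± 0.557 (SE, adjusted p = 0.902) changed to 0.66 without WT replicate 2. All Ile counts stood at 404, 326 and 254 CPM in KIN and 147, 484 and 252 CPM in WT (log2 fold change 0.16 ± 0.392 SE, adjusted p = 0.96, and 0.72 with adjusted p = 0.438 without WT replicate 2). All Val counts had a log2 fold change of -0.53 ± 0.506 (SE, adjusted p = 0.871), which turned to 0.60 (adjusted p = 0.417) without WT replicate 2. Without the filter on low counts, 2 members were called as lower, among them Val-AAC-3 (adjusted p = 0.00394), whose WT level rests on replicate 2. The share of all features called without the filter is not given here.

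The KIN effects in microglia and astrocytes were compared with an interaction term. Both fractions came from the same brains, which the fit did not take into account. No member was called, where 26 of 6899 features (0.377%) were. Val-AAC-5 had a log2 difference of 0.95 ± 0.361 (SE, adjusted p = 0.328) and Val-CAC-2 one of 0.84 ± 0.339 (SE, adjusted p = 0.359). That of Val-CAC-3 was 0.96 ± 0.432 (SE, adjusted p = 0.452). DESeq2 called none. All Ile counts differed by 0.10 ± 0.287 (SE, adjusted p = 0.983) between the fractions and all Val counts by 0.74 ± 0.318 (SE, adjusted p = 0.415).

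The share of Ile counts on Ile-AAT was 93.1, 93.4 and 93.2% in KIN astrocytes and 91.7, 92.0 and 91.5% in WT astrocytes, a difference of 1.53 percentage points. In microglia that share was 87.0, 87.2 and 84.0% in KIN against 76.2, 81.0 and 76.7% in WT, a difference of 8.11 percentage points. Ile-TAT makes up the rest, so its shares mirror these values. The neuron libraries overlapped, at 89.9 to 91.7% in KIN and 90.6 to 97.6% in WT, with a difference of -2.16 percentage points that became -3.44 without WT replicate 2.

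Among the Val anticodons, Val-CAC held 61.4 ± 0.399% in KIN and 61.9 ± 0.507% in WT astrocytes and 66.4 ± 3.41% in KIN and 63.1 ± 0.593% in WT microglia (SD, n = 3). Val-AAC held 21.3 to 21.4% in KIN and 23.3 to 23.6% in WT microglia, without overlap. Val-TAC held 17.2 to 17.5% in KIN and 15.8 to 16.9% in WT astrocytes, also without overlap. Each pair of anticodon and fraction without overlap had an exact two-sided permutation p of 0.1, the smallest that the design allows, and 0.25 after Benjamini-Hochberg adjustment over the 15 pairs. The half-width of the 95% Wilson interval of a single library's share was at most 1.36 percentage points in astrocytes, 1.97 in microglia and 2.79 in the neuron fraction, and covers counting error only.

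**Figure D4:**
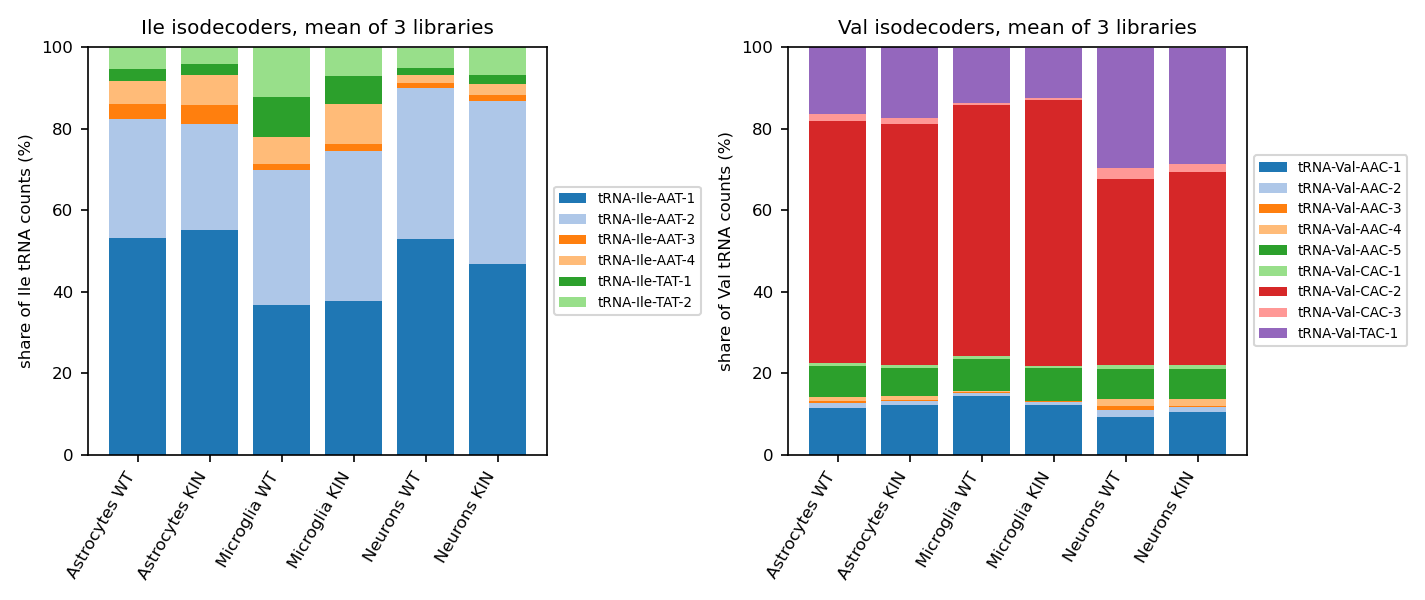
Share of the Ile (left) and Val (right) tRNA counts held by each isodecoder (y axis, percent), as the mean of 3 libraries in each of the 6 groups (x axis). Isodecoders under 0.5% in every group are not drawn. Ile-AAT forms 78.0% of the Ile counts in WT microglia and 86.1% in KIN microglia, and Val-CAC-2 is the widest band of the Val counts in all groups.

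Between the fractions of WT brains, members were called in both directions, and so were other tRNAs. The fractions came from the same brains, but their libraries entered these fits as independent. In microglia against astrocytes, 6 of 16 were called where 32.7% of 6243 features and 52 of all 176 tRNA isodecoders were. Of these, 3 were higher (12% of all features) and 3 lower (20.7% of all features). Highest was Ile-TAT-1, at 61.3, 48.9 and 49.6 CPM of the library total in WT microglia and 16.2, 18.3 and 12.8 CPM in WT astrocytes (log2 fold change 1.82 ± 0.313 SE, adjusted p = 0.000883). Ile-TAT-2 was higher as well (1.28 ± 0.292 SE, adjusted p = 0.00494), as was Val-CAC-4 (1.54 ± 0.407 SE, adjusted p = 0.0105). Lowest was Val-AAC-4, at 18.1, 16.4 and 18.8 CPM in microglia and 44.2, 59.3 and 33.1 CPM in astrocytes (log2 fold change -1.29 ± 0.334 SE, adjusted p = 0.00959). Val-CAC-3 (-1.29 ± 0.339 SE, adjusted p = 0.0106) and Ile-AAT-3 (-1.25 ± 0.456 SE, adjusted p = 0.0488) were lower too. Without WT microglia replicate 1 there were 3 calls.

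In WT neurons against WT astrocytes, 2 of 16 members were called, both lower, where 32.1% of 5757 features were called and 19.6% called as lower. Of all 179 tRNA isodecoders tested, 26 were called, 23 of them lower. Ile-AAT-4 stood at 1.65, 9.20 and 6.55 CPM in the neuron fraction and 25.8, 35.9 and 30.7 CPM in astrocytes, without overlap (log2 fold change -2.50 ± 0.539 SE, adjusted p = 0.00801). Its WT neuron libraries held only 2, 18 and 10 counts, so depth limits its values against this fraction. Ile-AAT-1 stood at 88.3, 227 and 121 CPM against 279.5, 329.6 and 266 CPM (log2 fold change -1.14 ± 0.383 SE, adjusted p = 0.0451). With same-numbered libraries as blocks, 8 members were called. Without WT neuron replicate 2 the count was 13, and it was 1 without any 1 of the other 5 libraries. The share of all features called in these alternative fits is not given here, so the counts are not read as particular to the members.

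In WT neurons against WT microglia, 3 of 16 members were called, again all lower, where 30.1% of 5010 features were called and 15.4% called as lower. Of all 172 tRNA isodecoders tested, 31 were called, 25 of them lower. Ile-TAT-1 stood at 0.826, 13.8 and 3.93 CPM in the neuron fraction, below the microglia values given above (log2 fold change -3.21 ± 0.684 SE, adjusted p = 0.00494). Its WT neuron libraries held only 1, 27 and 6 counts, so depth limits this value. Ile-AAT-4 had a log2 fold change of -2.85 ± 0.567 (SE, adjusted p = 0.00332) and Ile-TAT-2 one of -2.21 ± 0.629 (SE, adjusted p = 0.0218). Without WT neuron replicate 2 the count was 13. The share of all features called is not given here for this fit or for the factors from miRNA that follow. With factors from mature miRNA, which raised the median of all features by 2.23 log2 units against astrocytes and by 2.10 against microglia, 12 members were called higher against astrocytes and 6 higher against microglia. Among the members called lower above, Ile-AAT-1 then stood at 1.10 against astrocytes, while Ile-AAT-4 against astrocytes (-0.26) and Ile-TAT-1 (-1.37) and Ile-TAT-2 (-0.23) against microglia kept their direction without passing the test.

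**Figure D5:**
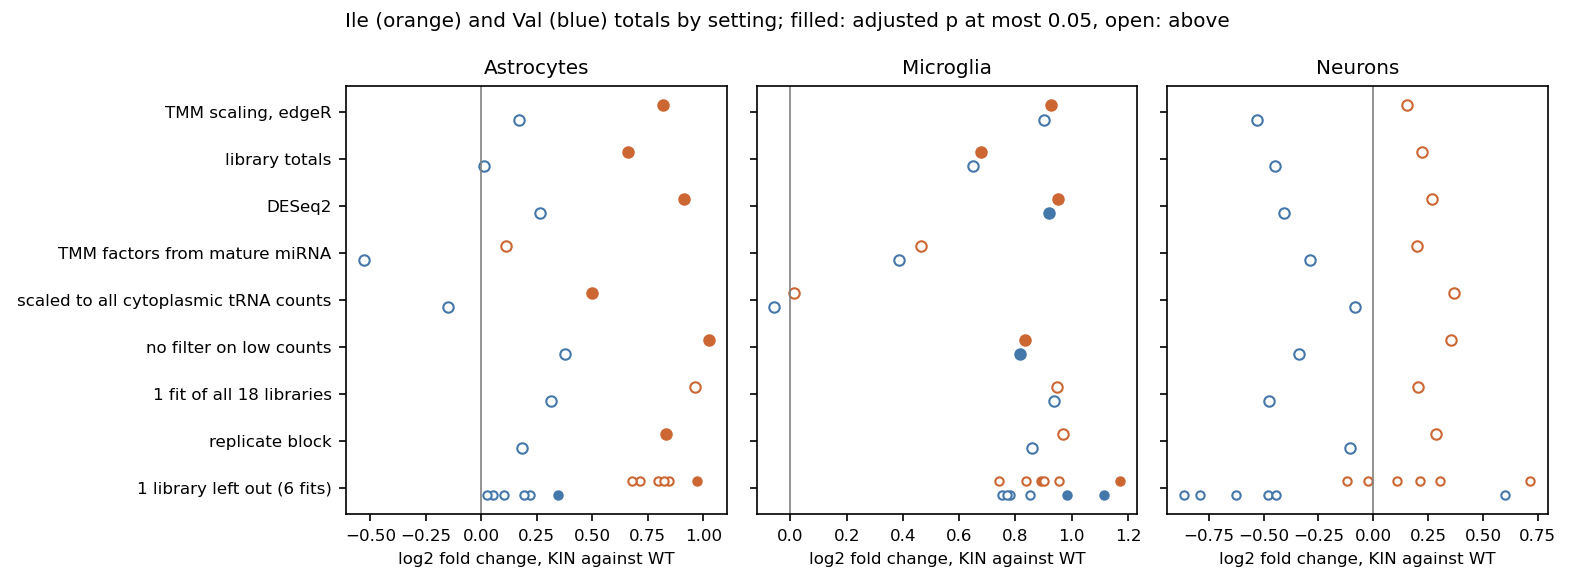
Log2 fold change of KIN against WT (x axis) for all Ile (orange) and all Val (blue) tRNA counts under each setting (y axis) in the 3 fractions, filled where the adjusted p was at most 0.05. In astrocytes Ile lies to the right of Val in every setting, at 0.11 to 1.03 for Ile and -0.53 to 0.38 for Val over the settings with all libraries. A change of scale moves both totals together, so their order under the scalings is not a separate test. In microglia both fall close to 0 (0.01 and -0.06) relative to all tRNA counts.

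Over the 18 libraries, the level of all Ile tRNAs ran most alike to those of Glu and Ser: the log2 CPM of Glu differed from that of Ile with an SD of 0.30, and that of Ser with 0.36. For Val the most alike amino acids were Phe (SD 0.47) and Glu (SD 0.48), and Val and Ile differed with an SD of 0.50. The libraries share depth and the makeup of their fraction, so these are descriptions.

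The mitochondrial partners did not pass the test between genotypes in any fraction. In astrocytes mt-Ti stood at 3785, 4181 and 4344 CPM in KIN against 5004, 5119 and 4705 CPM in WT (log2 fold change -0.27 ± 0.0843 SE, adjusted p = 0.0632). The values of mt-Tv were 5352, 5372 and 6616 CPM in KIN against 7386, 6987 and 6952 CPM in WT (log2 fold change -0.30 ± 0.0962 SE, adjusted p = 0.0679). The median log2 fold change of all features in this fraction, given above, was also negative. The difference of mt-Ti and mt-Tv from the cytoplasmic members was not tested. In microglia mt-Ti had a log2 fold change of 0.52 ± 0.210 (SE, adjusted p = 0.16) and mt-Tv one of 0.75 ± 0.292 (SE, adjusted p = 0.148). In the neuron fraction both had a log2 fold change of -1.37 (adjusted p = 0.864), which rested on WT replicate 2. There mt-Ti stood at 648, 650.0 and 675 CPM in KIN and 227, 4445 and 417 CPM in WT, and mt-Tv at 581, 521 and 540.2 CPM in KIN and 148, 3599.6 and 491 CPM in WT. Every KIN library lay above both other WT libraries. WT microglia had less of both than WT astrocytes, with log2 fold changes of -1.94 ± 0.209 for mt-Ti and -2.12 ± 0.248 (SE) for mt-Tv, both called.

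Of the 27 further genes listed for synthetases, inosine formation, base modification, processing, export, cleavage and transcription of tRNAs, 25 had transcripts in the table. Only 2 transcripts of them passed the filter in a KIN comparison, and none was called. Pus7-205, from the gene of a tRNA pseudouridine synthase, had log2 fold changes of 0.43 ± 1.16 (SE, adjusted p = 0.816) in astrocytes and 0.22 ± 0.643 (SE, adjusted p = 0.904) in microglia. Ssb-206, from the gene of the La protein that binds new RNA polymerase III transcripts, stood at 0.39 ± 0.847 (SE, adjusted p = 0.947) in the neuron fraction. No transcript of the Ile or Val synthetase genes was deep enough to be tested, as the libraries were made for small RNA.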

How the data were processed

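Small RNA-seq was measured in 18 libraries (3 per fraction and genotype). Per the labels and the study's methods, the authors trimmed reads with cutadapt 4.6, checked them with FastQC 0.11.9 and MultiQC 1.23, aligned them with Bowtie2 2.4.4 and counted them with HTSeq 2.0.2. The deposited table gives raw counts per feature for 203513 features, and 36 per-library columns on other scales as well as the authors' own comparisons (fold changes and p-values) were not used. No annotation pairs the tRNA names with sequences here. Copies were summed per isodecoder, anticodon and amino acid. In R 4.3.3, edgeR 4.0.16 (quasi-likelihood F test) was fitted to all features with at least 5 counts in 2 or more libraries of a comparison, only the compared groups entering each fit, with TMM scaling and Benjamini-Hochberg adjustment over all features. Called means an adjusted p of at most 0.05 and a log2 fold change of at least 1 in size, the thresholds of the study. DESeq2 1.42.0, other scalings, no filter, 1 fit of all 18 libraries, a replicate block, single gene copies and leaving out each library were alternatives. The SE is the unshrunken log2 fold change divided by the root of F. The code was tested on simulated counts.

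Named genes were the members called in a KIN or interaction test, the 3 most abundant isodecoders of each amino acid, the highest and lowest member of each comparison, all anticodons, the 2 most alike amino acids and a list of tRNA-related genes. Other members given with values were chosen after their values were seen. The members and lists were chosen with earlier results of these data known. The labels number replicates but do not say which share a brain or which are male or female. The deviations of same-numbered libraries from their group means correlated at 0.14, 0.30 and 0.10 between WT astrocytes and WT neurons (5757 features). Each thus exceeded the criterion of 0.1. The best match of a library was not always the one with its own number, so shared brains were not established. The criterion was not met between KIN and WT in any fraction, and the main fits did not pair KIN with WT mice. Where samples of a group differ only technically, p-values measure that spread. Wilson intervals were at the 95% level.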

Additional observations from a re-analysis of the deposited data

How the results depend on the processing

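The directions of all Ile counts in astrocytes and microglia were kept under every alternative run, but the calls depended on scaling and on single libraries. Against the 2 called members in astrocytes, there was 1 with library totals, 1 in the fit of all 18 libraries, and 0 with TMM factors from mature miRNA or with all cytoplasmic tRNA counts as the scale, and 0 to 2 when 1 library was left out. In microglia, against 2, there was 1 without a filter, 1 with the replicate block, and 0 with library totals, miRNA factors or tRNA scaling, and 0 to 7 when 1 library was left out. In neurons 2 members were called, both lower, without a filter, and 0 otherwise. In WT microglia against WT astrocytes the count was 3 to 6 when 1 library was left out. In WT neurons against WT astrocytes it was 1 with library totals, 12 with miRNA factors, 0 with tRNA scaling, 5 without a filter, 4 in the fit of all 18 libraries, 8 with the replicate block, and 1 to 13 when 1 library was left out. In WT neurons against WT microglia it was 5 with DESeq2, 6 with miRNA factors, 6 without a filter, 9 in the fit of all 18 libraries, 8 with the replicate block, and 2 to 13 when 1 library was left out. The share of all features called under each alternative is not given here, so these counts are not read as particular to the members. The cause of these moves was not tested, beyond the fewer libraries of the fits that leave 1 out.

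The log2 fold change of all Ile counts no longer passed the adjusted p in astrocytes with miRNA factors (0.11) and in the fit of all 18 libraries (0.96), and in microglia with miRNA factors (0.46), tRNA scaling (0.014), the fit of all 18 libraries (0.95) and the replicate block (0.97). Leaving out 1 library gave 0.68 to 0.97 in astrocytes, 0.74 to 1.17 in microglia and -0.12 to 0.72 in neurons. Of the 6 such fits per fraction, 5 in astrocytes and 4 in microglia did not pass. For all Val counts, microglia passed with DESeq2 (0.92) and without a filter (0.82). With 1 library left out, all Val counts stood at 0.024 to 0.35 in astrocytes, where 1 of the 6 fits passed. They stood at 0.75 to 1.11 in microglia, where 2 of the 6 fits passed, and at -0.86 to 0.60 in neurons. The replicate block moved no other total across the adjusted p threshold. The labels do not say whether same-numbered KIN and WT libraries form a pair, and their deviations did not meet the criterion given above.

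Values turned in direction mainly where the scale moved the median of all features. With miRNA factors in astrocytes, the log2 fold change was -0.53 for all Val counts, -0.18 for Ile-TAT, -0.56 for Val-AAC, -0.55 for Val-CAC, -0.43 for Val-TAC, -0.056 for Ile-AAT-2, -0.54 for Val-CAC-2, -0.43 for Val-TAC-1 and -0.44 for Val-AAC-1. With tRNA scaling in astrocytes it was -0.15 for all Val counts, -0.19 for Val-AAC, -0.16 for Val-CAC, -0.051 for Val-TAC, -0.15 for Val-CAC-2, -0.051 for Val-TAC-1 and -0.062 for Val-AAC-1. With library totals in astrocytes it was -0.029 for Val-AAC and -0.00099 for Val-CAC. In microglia, tRNA scaling gave -0.059 for all Val counts, -0.66 for Ile-TAT, -0.19 for Val-AAC, -0.28 for Val-TAC, -0.28 for Val-TAC-1, -0.29 for Val-AAC-1 and -0.77 for Ile-TAT-2, miRNA factors gave -0.19 for Ile-TAT and -0.31 for Ile-TAT-2, and library totals gave -0.093 for Ile-TAT-2. In neurons, no filter gave 0.032 for Val-TAC and 0.046 for Val-TAC-1, and Val-AAC-1 stood at 0.072 with tRNA scaling and 0.085 with the replicate block. In WT neurons against WT astrocytes, Ile-AAT-1 stood at 1.10 with miRNA factors.

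When 1 library was left out, the log2 fold changes that turned at least once ran from -0.027 to 0.33 for Val-AAC and -0.45 to 0.0091 for Val-AAC-2 in astrocytes, and from -0.011 to 0.33 for Ile-TAT-2 in microglia. In neurons they ran from -0.12 to 0.66 for Ile-AAT, -0.14 to 1.14 for Ile-TAT, -1.17 to 0.82 for Val-AAC, -0.99 to 0.69 for Val-CAC, -0.39 to 0.29 for Val-TAC, -0.17 to 0.53 for Ile-AAT-1, -0.023 to 0.72 for Ile-AAT-2, -0.90 to 0.66 for Val-CAC-2, -0.37 to 0.27 for Val-TAC-1, -0.80 to 0.79 for Val-AAC-1 and -2.75 to 0.49 for Val-AAC-3. The differences in shares in neurons, in percentage points, ran from -3.44 to 0.11 for Ile-AAT, -0.11 to 3.44 for Ile-TAT, -2.79 to 3.34 for Val-AAC, -4.02 to 3.9 for Val-CAC and -7.24 to 6.81 for Val-TAC.

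Against the scaling used in the report, the median of all features moved in astrocytes, microglia and neurons by -0.14, -0.26 and 0.02 log2 units with library totals, by -0.70, -0.48 and -0.11 with miRNA factors and by -0.30, -0.97 and -0.02 with tRNA scaling. Depth limits the members with few counts, such as Val-CAC-4 (419 counts in all libraries), and the 4 untested isodecoders. It also limits Ile-AAT-4 and Ile-TAT-1 in the WT neuron libraries.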
